A study of Mus musculus with 9 samples.

Results

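The lysyl oxidase family is made up of 5 genes, *Lox*, *Loxl1*, *Loxl2*, *Loxl3* and *Loxl4*, and its members were chosen by symbol from the 55416 Ensembl genes of the count table. All 5 were matched to a single Ensembl gene, and all 5 were among the 14879 genes that passed edgeR's filter on low counts. Their expression was measured by RNA-Seq in 9 libraries from AdvSca1-SM cells in culture. These are progenitors of the adventitia that descend from smooth muscle, and were sorted for YFP and Sca1 from aorta and carotids pooled over several SM22α-Cre-YFP reporter mice. The SM22α promoter drives Cre in smooth muscle, so that YFP marks smooth muscle and its descendants. The Stem group was kept in stem cell medium with vehicle, and the TGF-β group was switched after growth arrest to low-serum DMEM with 5 ng/mL TGF-β1. The Both group received 5 ng/mL TGF-β1 and 50 μM PFI-3, an inhibitor directed at the bromodomain of Brg1, a chromatin remodeler, in the same medium. Every group had 3 libraries, received 0.1% DMSO and was harvested after 72 hours. Medium and TGF-β1 changed together between Stem and TGF-β and cannot be told apart, whereas TGF-β and Both differed in PFI-3. Below, a change with TGF-β1 means the difference from Stem to TGF-β, the change of medium included. The study describes its replicates as biological, and the cells came from pooled mice. The labels do not say which mice stand behind each library, so the p-values measure the spread between these samples.

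Lysyl oxidases are secreted, copper-dependent amine oxidases. They convert lysine and hydroxylysine side chains of collagens and elastin to aldehydes, which then condense into the covalent crosslinks that make fibers insoluble and stiff. LOX and LOXL1 are made as proenzymes and are cut by the procollagen proteinase BMP1 and its relatives, whereas LOXL2, LOXL3 and LOXL4 carry scavenger receptor cysteine-rich domains. In the artery wall, LOX and LOXL1 are best known for crosslinking elastic fibers and collagen.

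Total counts ran from 35686291 to 47741128 per library. *Ly6a*, which encodes Sca1, and *Pdgfra* were expressed in every Stem library, with means of 7635 and 45657 normalized counts, and fell with TGF-β1 by 3.02 and 3.07 on the log2 scale (adjusted p = 2.44e-10 and 1.23e-12 from edgeR). Of the 6 markers of AdvSca1-SM and fibroblast lineage cells, 4 fell (also *Cd34* and *Scara5*) and 2 rose (*Klf4* and, from a Stem mean of 1.06 normalized counts, *Gli1*). The summed level of 5 leukocyte markers was 19.6 to 41.9 normalized counts in Stem, 71.0 to 103 for TGF-β and 152 to 156 for Both, mostly from *Csf1r*, with 2 of the 5 at 0 throughout. That of 5 endothelial markers was 106 to 232 in Stem and 49.2 to 84.9 in the other groups. Of the 3 endothelial markers tested, 1 rose and 2 fell with TGF-β1. The RNA extraction label names hepatic tissue, but 5 hepatocyte markers summed to at most 2.63 normalized counts in any library. The summed level of 6 smooth muscle markers moved with the groups, at 10606 to 13325 in Stem, 22688 to 25148 for TGF-β and 17395 to 18334 for Both. Of the 6, *Acta2* and *Tagln* rose and *Myh11* and *Lmod1* fell with TGF-β1, and with PFI-3 *Acta2*, *Tagln* and *Cnn1* fell. The part of these marker lists in the results below was not tested. In these bulk libraries, fewer cells expressing a gene and less RNA per cell cannot be told apart.

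All 5 lysyl oxidase genes were higher in TGF-β than in Stem, and their responses spanned a wide range, from 1.32-fold for *Loxl1* to 12.1-fold for *Lox*. Addition of PFI-3 left *Lox* within 0.26 of its TGF-β level on the log2 scale (95% interval in the fit of all 9 libraries), while *Loxl2* and *Loxl4* were lower by about 1.3-fold. Normalized counts refer every library to the same size, 41184338 counts, after TMM scaling. A gene was called where its Benjamini-Hochberg adjusted p was below 0.05 and its change exceeded 2-fold. Rose and fell are used for changes with an adjusted p below 0.05, whether or not they reached 2-fold.

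**Figure D1:**
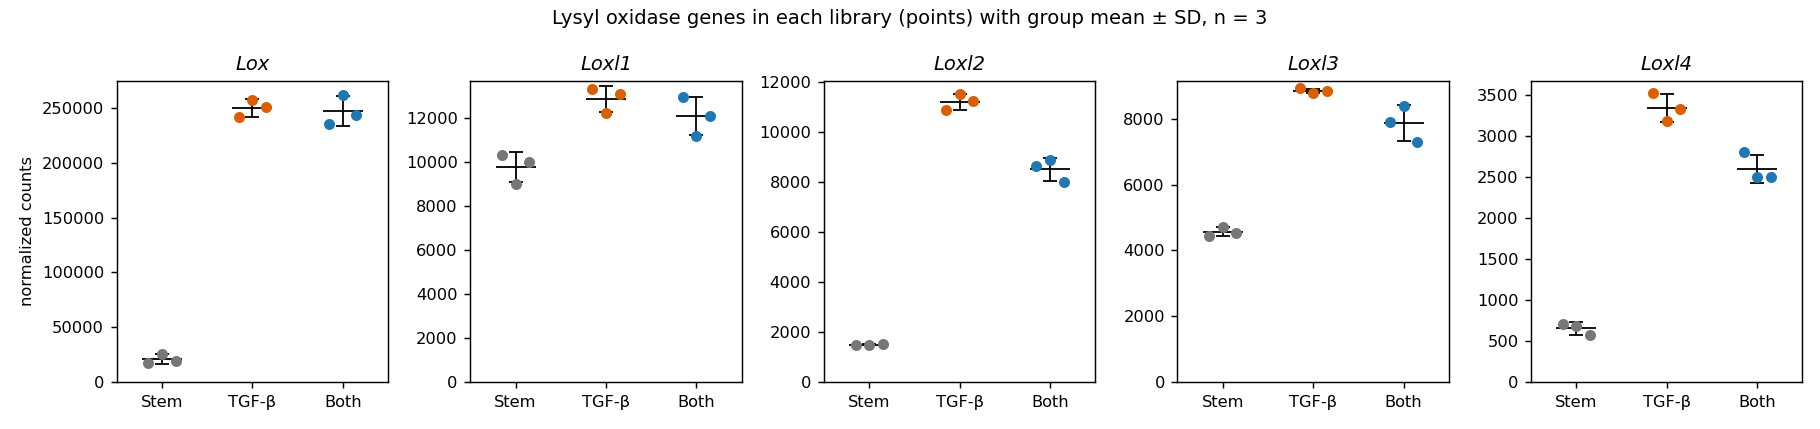
Normalized counts (vertical axes, starting at 0, with a scale of its own for each gene) of the 5 lysyl oxidase genes in the 3 Stem, 3 TGF-β and 3 Both libraries; points are libraries, and bars are the group mean ± SD. *Lox* lies between 235936 and 262460 in all TGF-β and Both libraries, whereas every Both library of *Loxl2*, *Loxl3* and *Loxl4* lies below every TGF-β library.

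*Lox* (ENSMUSG00000024529), the founding member and the principal crosslinking enzyme of collagen and elastin, was the most abundant. It had 17163, 25729 and 19177 normalized counts in the Stem libraries, 241886, 257626 and 250920 in TGF-β and 235936, 262460 and 244144 in Both. Every TGF-β library was above every Stem library, while the TGF-β and Both libraries were interleaved. The group means were 20690 ± 4479, 250144 ± 7899 and 247514 ± 13579 (SD, n = 3 each). The log2 fold change from Stem to TGF-β was 3.60 (95% interval 3.32 to 3.87, quasi-likelihood adjusted p = 1.03e-10 in edgeR), which was above that of 98.6% of the genes tested. By count, *Lox* ranked between 138 and 247 among all genes in the Stem libraries, at 11 in each TGF-β library and at 10 in each Both library. It took 0.0449% to 0.0635% of the counts of a Stem library and 0.568% to 0.604% of those of a TGF-β library.

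The relative spread of *Lox* was larger in Stem, with a coefficient of variation of 21.6%, than in TGF-β (3.16%) and Both (5.49%). Within each group, the library numbered 2 had the highest *Lox* value and the lowest *Loxl1* value.

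*Loxl1* (ENSMUSG00000032334), which takes part in elastic fiber assembly and renewal, changed least with TGF-β1. It had 10329, 9023 and 9992 normalized counts in Stem, 13327, 12219 and 13094 for TGF-β and 12953, 11203 and 12117 for Both. All TGF-β libraries were above all Stem libraries, but by a narrow margin. The log2 fold change was 0.40 (standard error 0.0625, adjusted p = 9.83e-05 from edgeR), short of the 2-fold minimum. With a group mean of 9781 ± 678 in Stem against 12880 ± 584 in TGF-β (SD, n = 3 each), *Loxl1* was already well expressed in the progenitor state.

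*Loxl2* (ENSMUSG00000034205), known for crosslinking type IV collagen of basement membranes, had 1463, 1496 and 1524 normalized counts in Stem, 10906, 11544 and 11244 for TGF-β and 8648, 8911 and 8003 for Both. The 3 groups did not overlap, with Both between Stem and TGF-β. The log2 fold change from Stem to TGF-β was 2.91 (standard error 0.0488, adjusted p = 3.44e-13 from edgeR), a 7.52-fold rise. Against *Lox*, its rise was smaller in proportion. The count of *Lox* divided by that of *Loxl2* in the same library, a ratio that needs no normalization, was 11.7, 17.2 and 12.6 in Stem and 22.2, 22.3 and 22.3 in TGF-β.

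*Loxl3* (ENSMUSG00000000693), which is needed for craniofacial and vertebral development, had 4448, 4721 and 4529 normalized counts in Stem, 8924, 8786 and 8842 for TGF-β and 7898, 8386 and 7298 for Both. Its rise with TGF-β1 was 0.95 on the log2 scale (standard error 0.0491, adjusted p = 3.66e-09 from edgeR), and the 95% interval of 0.85 to 1.06 included the 2-fold minimum. The end of *Loxl3* in the GENCODE M21 annotation overlaps *Htra2* on the opposite strand, which had 939 to 1013 counts in Stem and 1256 to 1351 in TGF-β. The paper names a stranded library kit, but the strand setting of the counting is not given in the sources used here. Whether reads of the 2 genes were told apart there is therefore unknown.

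*Loxl4* (ENSMUSG00000025185), the least abundant member, had 712, 681 and 567 normalized counts in Stem, 3522, 3181 and 3327 for TGF-β and 2798, 2505 and 2500 for Both. As for *Loxl2*, the groups were ordered Stem, Both, TGF-β without overlap. The log2 fold change from Stem to TGF-β was 2.35 (standard error 0.0790, adjusted p = 7.51e-11 from edgeR), a 5.11-fold rise. The promoter of *Loxl4* is shown because it was the one of the family found in the reference promoter table, and the gene changed in both comparisons. It lies at chr19:42612757-42613056 on the minus strand (RefSeq, GRCm38.p6, a different build from the one the paper names for alignment). The sequence is given 5′ to 3′ from 250 bases before to 50 bases after the start site, and has capitals at motif matches.

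Loxl4 promoter: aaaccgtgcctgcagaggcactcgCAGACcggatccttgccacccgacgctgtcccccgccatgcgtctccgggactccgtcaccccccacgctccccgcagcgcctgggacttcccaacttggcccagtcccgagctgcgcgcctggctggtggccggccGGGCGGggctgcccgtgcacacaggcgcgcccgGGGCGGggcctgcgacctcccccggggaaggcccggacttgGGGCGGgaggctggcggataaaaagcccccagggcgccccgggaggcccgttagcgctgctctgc

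The motifs searched on both strands were CAGAC (the Smad core element), TGANTCA (AP-1), TATAAA (the TATA box), GGGCGG (the GC box) and CATTCC (the TEAD element). The *Loxl4* window held 1 CAGAC, which 49.6% of 32851 promoters of the same length hold, and 3 GGGCGG, which occurs in 35.7% of them. The letters of the other motifs were not in this window, and 75.0% of its bases were G or C. No entry for *Lox*, *Loxl1*, *Loxl2* or *Loxl3* was found in the reference promoter table.

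Of the family, 3 of 5 genes (*Lox*, *Loxl2* and *Loxl4*) were called higher in TGF-β at 2-fold, against 10.6% of all genes tested. With no fold-change minimum, 5 of 5 rose, against 37.3% of all genes. The Stem and TGF-β libraries were without overlap in 5 of 5, as they were, in the upward direction, for 38.1% of all genes tested. The median log2 fold change of the 5 genes was 2.35, and that of all genes tested was -0.0027. The order of the responses was *Lox*, *Loxl2*, *Loxl4*, *Loxl3* and *Loxl1*, and the 95% intervals of neighbors in this order did not overlap.

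**Figure D2:**
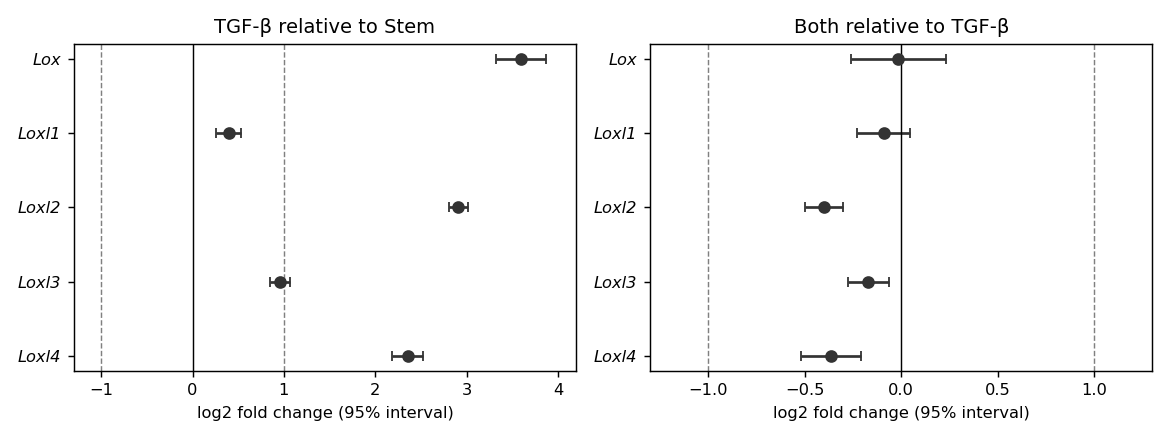
Log2 fold changes (horizontal axes) of each lysyl oxidase gene with 95% intervals from edgeR, between Stem and TGF-β on the left and between TGF-β and Both on the right; dashed lines mark 2-fold. On the left all 5 intervals lie above 0, from *Loxl1* at 0.40 to *Lox* at 3.60, and on the right those of *Lox* and *Loxl1* cross 0.

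Between TGF-β and Both, none of the 5 genes was called at 2-fold by edgeR, where 0.470% of all genes were called lower and 0.161% higher. By DESeq2 the count was also 0, and 3 of the 5 had an unadjusted p under 0.05 in edgeR, as had 24.1% of all genes tested. At an adjusted p of 0.05 alone, 3 of the 5 (*Loxl2*, *Loxl3* and *Loxl4*) fell, against 5.38% of all genes tested, and none rose, against 3.54%. The same 3 had no overlap between the groups, as did 17.4% of all genes in the downward direction. The median log2 fold change of the family was -0.17, and that of all genes -0.0020.

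*Loxl2* fell by 0.40 on the log2 scale (95% interval -0.50 to -0.30, adjusted p = 2.31e-04 from edgeR), from 11232 ± 319 to 8521 ± 467 normalized counts (SD, n = 3 each). *Loxl4* fell by 0.36 (95% interval -0.52 to -0.21, adjusted p = 0.00841 from edgeR), from 3344 ± 171 to 2601 ± 171 (SD, n = 3 each). Their changes were lower than those of all but 6.33% and 7.38% of the genes tested. *Loxl3* fell by 0.17 (95% interval -0.28 to -0.07, adjusted p = 0.0479 from edgeR), from 8850 ± 69.7 to 7861 ± 545 (SD, n = 3 each). The *Loxl3* change passed the threshold narrowly. Over 8 other settings, which include a fit of only the 6 libraries compared, the adjusted p of this change lay between 0.0118 and 0.0554. It was between 0.0830 and 0.172 without any of Stem replicate 3, TGF-β replicates 1, 2 and 3 or Both replicates 1 and 3.

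*Lox* had a log2 fold change of -0.02 with PFI-3 (95% interval -0.26 to 0.23, adjusted p = 0.958 from edgeR), and *Loxl1* one of -0.09 (95% interval -0.23 to 0.04, adjusted p = 0.415). The width of the *Lox* interval depended on the libraries in the fit, which share the estimate of the spread. Without Stem replicate 2 the interval was -0.12 to 0.10, and with the 6 TGF-β and Both libraries alone it was -0.11 to 0.08. Without Stem replicate 3 it was -0.27 to 0.24. Leaving out any TGF-β or Both library widened it, as to -0.35 to 0.22 without Both replicate 2 and -0.27 to 0.31 without Both replicate 1. The difference between members was read from ratios within libraries. The *Lox* to *Loxl2* ratio was 22.2, 22.3 and 22.3 in TGF-β and 27.3, 29.5 and 30.5 in Both, and the *Lox* to *Loxl4* ratio was 68.7 to 81.0 in TGF-β and 84.3 to 105 in Both. Neither ratio overlapped between the groups. The *Lox* to *Loxl3* ratio was 27.1, 29.3 and 28.4 in TGF-β and 29.9, 31.3 and 33.5 in Both, also without overlap. For each of these 3 ratios an exact permutation test, 2-sided, gave p = 0.1, the smallest value that 3 against 3 libraries allow. The *Lox* to *Loxl1* ratio overlapped between the groups, at 18.2 to 21.1 in TGF-β and 18.2 to 23.4 in Both (exact permutation p = 0.6).

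**Figure D3:**
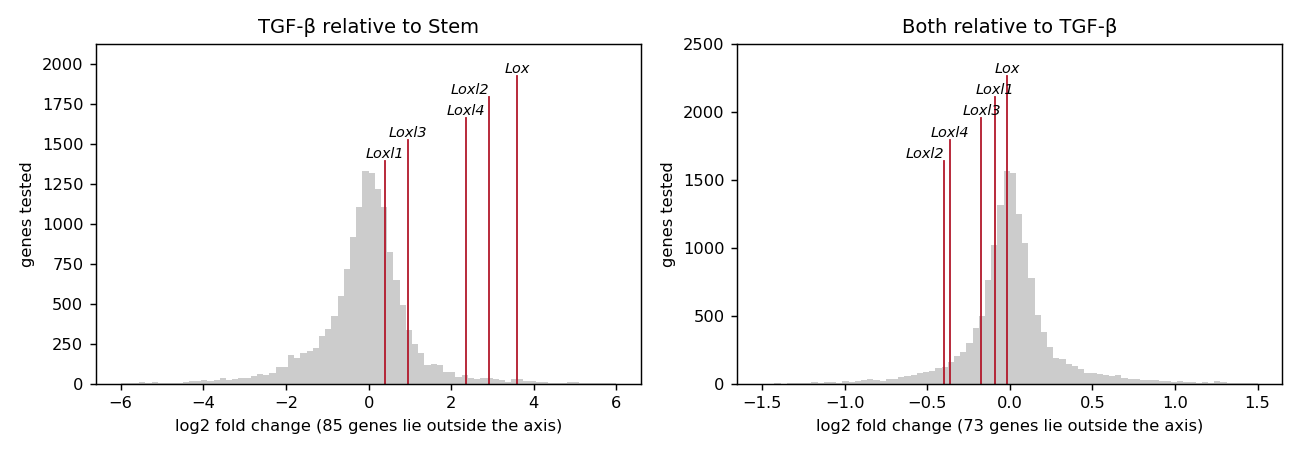
Number of tested genes (vertical axes) by log2 fold change (horizontal axes) between Stem and TGF-β on the left and between TGF-β and Both on the right, with the 5 lysyl oxidase genes as red lines; line height has no meaning. *Lox* lies above 98.6% of genes on the left and above 46.2% on the right, whereas *Loxl2* lies above 97.9% on the left and above 6.33% on the right.

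Between Stem and Both, the comparison that spans medium, TGF-β1 and PFI-3 together, the same 3 genes were called higher at 2-fold, against 9.55% of all genes, and 5 of 5 rose at an adjusted p of 0.05, against 36.6%. The log2 fold changes were 3.58 for *Lox*, 2.51 for *Loxl2*, 1.99 for *Loxl4*, 0.78 for *Loxl3* and 0.31 for *Loxl1* (adjusted p from 1.04e-12 to 8.01e-04 from edgeR). The 3 comparisons share libraries, so that they are not independent of each other.

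To compare levels between genes, normalized counts were divided by the length of the longest annotated transcript, which was 4.741 kb for *Lox*, 3.297 kb for *Loxl1*, 5.316 kb for *Loxl2*, 4.098 kb for *Loxl3* and 3.738 kb for *Loxl4*. In Stem, *Lox* had 4364 ± 945 normalized counts per kb, *Loxl1* 2967 ± 206, *Loxl3* 1114 ± 34.2, *Loxl2* 281 ± 5.82 and *Loxl4* 175 ± 20.4 (SD, n = 3 each). No 2 neighbors in this order overlapped. In TGF-β, *Lox* had 52762 ± 1666 and *Loxl1* 3907 ± 177 normalized counts per kb. *Loxl3* at 2160 ± 17.0 and *Loxl2* at 2113 ± 60.0 overlapped in their libraries and were not told apart, and *Loxl4* had 894 ± 45.7. In Both, *Loxl3* at 1918 ± 133 and *Loxl2* at 1603 ± 87.9 did not overlap. The order of *Loxl3* and *Loxl2* in TGF-β and Both turned with the length used. With coding length, *Loxl2* made up 2.19% and *Loxl3* 1.78% of the family in TGF-β, and 1.70% and 1.61% in Both.

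As a share of the summed normalized counts per kb of the 5 genes, *Lox* made up 43.6% to 55.5% in Stem, 84.7% to 86.0% for TGF-β and 85.8% to 87.7% for Both. The share of *Loxl1* was 33.6% ± 5.05 in Stem against 6.32% ± 0.429 in TGF-β (SD, n = 3 each), although its level rose. The share of *Loxl3* was 12.6% ± 0.685 in Stem against 3.49% ± 0.113 in TGF-β (SD, n = 3 each). The *Loxl4* share was 1.76% to 2.29% in Stem and 1.35% to 1.56% in TGF-β. For each of the 5 genes, *Loxl2* included, the Stem and TGF-β libraries did not overlap (exact permutation p = 0.1 each, 2-sided, the smallest possible). Shares of a library add up to the whole, so a larger *Lox* share lowers the others and these tests are not independent. The *Loxl2* share was 3.17% ± 0.255 in Stem against 3.42% ± 0.0163 in TGF-β (SD, n = 3 each), and the sign of this difference turned with the length used. With coding length the means were 2.58% and 2.19%. From TGF-β to Both, the shares of *Loxl2*, *Loxl3* and *Loxl4* were lower without overlap, at 2.67% ± 0.130, 3.19% ± 0.161 and 1.16% ± 0.118 in Both (SD, n = 3 each), whereas those of *Lox* and *Loxl1* overlapped.

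**Figure D4:**
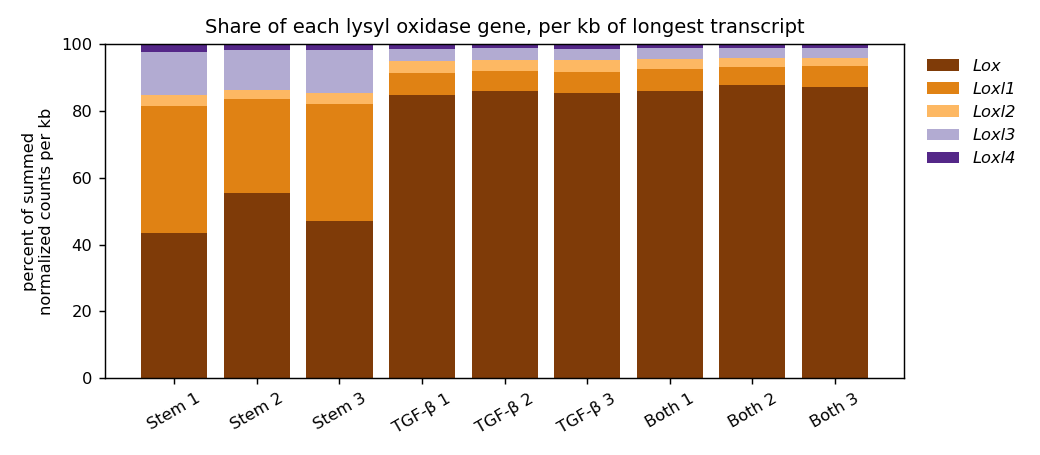
Share of each lysyl oxidase gene in the summed normalized counts per kb of longest transcript (vertical axis, percent) in each of the 9 libraries (horizontal axis). *Lox* makes up 43.6% to 55.5% in the Stem libraries and 84.7% to 87.7% in the TGF-β and Both libraries.

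Summed over the family and without length correction, 37185 ± 3958 normalized counts were found in Stem, 286450 ± 7444 for TGF-β and 278587 ± 13211 for Both (SD, n = 3 each). The Both libraries, at 268233 to 293465, overlapped the TGF-β libraries, at 278565 to 293356.

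Most of the genes for substrates that lysyl oxidases crosslink rose from Stem to TGF-β, and most fell with PFI-3. Of 14 tested genes for elastin, fibrillar collagen and type IV collagen chains, 12 were called higher and 2 lower between Stem and TGF-β, with a median log2 fold change of 2.01. The 2 lower genes, *Col24a1* and *Col27a1*, are named after their values were seen, and had log2 fold changes of -1.04 and -2.88 from low levels, with Stem means of 24.8 and 111 normalized counts. Of all genes tested, 10.6% were called higher, 14.5% were called lower and 37.7% fell. Between TGF-β and Both, 11 of the 14 fell, 4 of them past 2-fold, and the other 3 did not pass the test. Of all genes tested, 5.38% fell and 0.470% were called lower at 2-fold. Their median log2 fold change was -0.46. *Eln*, the elastin gene, had 359 ± 94.7 normalized counts in Stem, 434180 ± 29958 for TGF-β and, with PFI-3 added, 204453 ± 25056 (SD, n = 3 each). It rose by 10.24 on the log2 scale with TGF-β1 and fell by 1.09 with PFI-3 (edgeR, adjusted p = 8.13e-13 and 3.90e-04). *Col1a1* and *Col1a2*, which encode the chains of type I collagen, rose by 3.08 and 1.63 on the log2 scale with TGF-β1 and fell by 0.47 and 0.36 with PFI-3 (edgeR, adjusted p = 1.48e-12, 8.62e-10, 5.53e-04 and 0.00776).

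The balance between *Lox* and these substrates differed between the groups. For each *Eln* read there were 65.6, 57.1 and 52.6 *Lox* reads in Stem, 0.584, 0.550 and 0.598 for TGF-β and 1.12, 1.16 and 1.38 for Both. For each *Col1a1* read there were 0.222, 0.284 and 0.232 *Lox* reads in Stem, 0.344, 0.351 and 0.365 for TGF-β and 0.453, 0.502 and 0.495 for Both. Each of these ratios was without overlap between the groups (exact permutation p = 0.1, the smallest possible, for Stem against TGF-β and for TGF-β against Both). The *Lox* to *Eln* ratio was 2.11-fold higher in Both than in TGF-β, and the *Lox* to *Col1a1* ratio 1.37-fold higher. These are ratios of reads, not of molecules, since the genes differ in length.

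**Figure D5:**
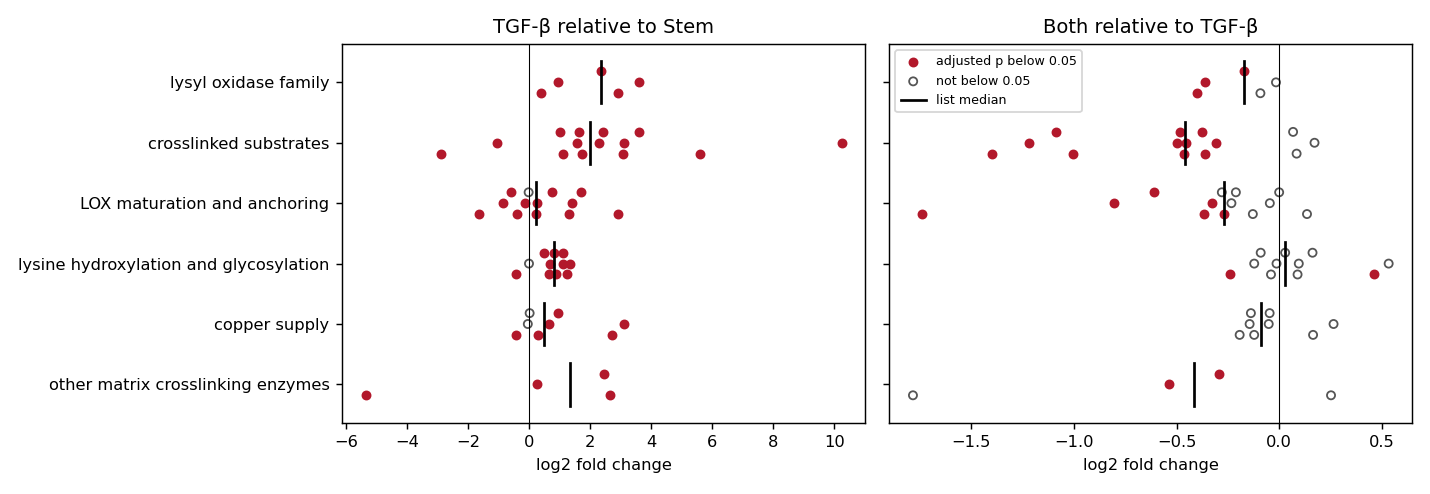
Log2 fold changes (horizontal axes) of the tested genes of 6 lists (rows) between Stem and TGF-β on the left and between TGF-β and Both on the right; filled points have an adjusted p below 0.05 in edgeR, and black lines are list medians. The crosslinked substrates have medians of 2.01 on the left and -0.46 on the right, against 2.35 and -0.17 for the lysyl oxidase family.

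Genes that mature or anchor lysyl oxidases moved in both directions with TGF-β1, as did all genes tested. Of 13 tested, 4 were called higher and 1 lower at 2-fold, against 10.6% and 14.5% of all genes. Without the minimum, 7 rose and 5 fell, where 37.3% of all genes rose and 37.7% fell. The number that fell was near the share of all genes. Their median log2 fold change was 0.23. With PFI-3, 1 (*Postn*, the periostin gene, named after its value was seen, at -1.74) was called lower at 2-fold, 6 fell without the minimum and 0 rose, with a median of -0.27. Of all genes tested, 0.470% were called lower at 2-fold, 5.38% fell and 3.54% rose. *Fn1*, which encodes the fibronectin that binds LOX and its activating proteinase, rose by a log2 fold change of 0.76 with TGF-β1 and fell by 0.36 with PFI-3 (adjusted p = 5.18e-08 and 0.00115 from edgeR). *Thbs1*, the gene of the matricellular protein thrombospondin-1, rose by 1.40 on the log2 scale (edgeR, adjusted p = 5.29e-08), and its difference with PFI-3 was -0.21 (adjusted p = 0.196). *Adamts2*, a procollagen N-proteinase, fell by 0.87 with TGF-β1 and by 0.33 with PFI-3 (adjusted p = 7.74e-10 and 2.75e-04 from edgeR).

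Enzymes and chaperones that hydroxylate or glycosylate collagen, some of whose lysine products are lysyl oxidase substrates, rose with TGF-β1 in 9 of 11 tested genes and fell in 1 (all genes, 37.3% and 37.7%). Of these, 4 were called higher at 2-fold, against 10.6% of all genes, and the median log2 fold change was 0.82. With PFI-3, 1 rose (*P3h4*, named after its value was seen, at 0.46), 1 fell (*Serpinh1*) and 9 did not pass the test, and the median was 0.03. Of all genes tested, 3.54% rose and 5.38% fell. *Plod2*, which encodes the telopeptide lysyl hydroxylase, had 23764 ± 1345 normalized counts in Stem, 41981 ± 522 for TGF-β and 44868 ± 1337 for Both (SD, n = 3 each). The log2 differences were 0.82 and 0.10 (adjusted p = 8.03e-09 and 0.227 from edgeR). *Plod3* had 0.70 and -0.09 (adjusted p = 2.82e-07 and 0.372 from edgeR), and the collagen chaperone gene *Serpinh1* rose 2.18-fold and fell by 0.24 on the log2 scale (adjusted p = 4.64e-09 and 0.0263 from edgeR).

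Of 8 tested genes for copper uptake, delivery and storage, 5 rose and 1 fell with TGF-β1, against 37.3% and 37.7% of all genes. The metallothionein genes *Mt1* and *Mt2*, whose products bind zinc and copper, were the 2 called at 2-fold, at 2.73 and 3.10 on the log2 scale (edgeR, adjusted p = 2.20e-10 and 5.94e-10). Of all genes tested, 10.6% were called higher at 2-fold. *Sod1*, a copper enzyme gene, rose by 0.30 (adjusted p = 0.00263 from edgeR). With PFI-3 the count was 0 of 8 in edgeR and 0 in DESeq2, and 5 of 8 had an unadjusted p under 0.05, against 24.1% of all genes tested. Among other matrix crosslinking enzymes, 4 of 9 were tested, of which 3 rose and 1 (*Tgm1*, named after its value was seen, with a Stem mean of 60.5 normalized counts) fell with TGF-β1, and 2 fell with PFI-3. The shares of all genes were 37.3% and 37.7% with TGF-β1, and 5.38% fell with PFI-3. *Tgm2*, the tissue transglutaminase gene, rose with a log2 fold change of 2.44 and fell by 0.54 with PFI-3 (adjusted p = 1.81e-09 and 0.00798 from edgeR). *Pxdn*, whose product crosslinks type IV collagen, rose by 0.27 and fell by 0.29 (adjusted p = 2.41e-05 and 4.70e-04 from edgeR). *Tgm5* had a mean of at most 48.9 normalized counts in any group.

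The genes most like each member were taken by Pearson's r of log2 CPM over the 9 libraries, among 10876 other genes with at least 100 mean normalized counts. They are given as a description, since the 3 groups share most of the variation. For *Lox* these were *Hspb7*, *Fam198b* and *Lclat1* (r of 0.9997, 0.9997 and 0.9996), which had log2 fold changes of -0.01, -0.02 and 0.01 with PFI-3. For *Loxl2* they were *Arhgef28*, *Arhgef2* and *Wnt10b* (r of 0.9996, 0.9995 and 0.9995), with -0.43, -0.23 and -0.87 with PFI-3. For *Loxl4* they included *Hspa2* and *Itga7* (r of 0.9985 and 0.9980), for *Loxl3* *Dlg1*, *Plgrkt* and *Tgfb3* (r of 0.9976, 0.9974 and 0.9970), and for *Loxl1* *Sertad4*, *St6gal1* and *Hgs* (r of 0.988, 0.985 and 0.984). Between members, r over the same 9 libraries was lowest for *Lox* and *Loxl1* at 0.859 and was 0.994 for *Loxl2* with *Loxl3* and with *Loxl4*.

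An unnamed antisense gene that overlaps the start of *Lox* on the opposite strand (AC161119.1, ENSMUSG00000118365) had 6 to 7 counts in Stem, 104 to 119 for TGF-β and 83 to 131 for Both, against 16394 to 278165 counts of *Lox*. Without the strand setting of the counting, whether its reads and those of *Lox* were told apart is unknown.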

How the data were processed

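RNA-Seq was measured in 9 libraries, 3 each of Stem, TGF-β and Both, grouped by their labels. The file deposited by the authors holds unnormalized read counts for each library, with Ensembl genes as rows. The paper names Flexbar trimming and STAR alignment to GRCm39, whereas the submitters' processing notes name HISAT2 2.2.1, SAMtools 1.13 and HTSeq 0.11.3. The paper names a stranded library kit. The strand setting of the counting, and how reads with several alignments were counted, are not given in the sources used here.

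Gene symbols were looked up by Ensembl identifier and found for 52083 of 55416 genes. In R 4.3.3, counts were filtered with filterByExpr and scaled by TMM in edgeR 4.0.16, and 14879 genes entered a single fit of the 9 libraries by edgeR's quasi-likelihood test with group as the only term. The prior count was 0.125, and p-values were adjusted by Benjamini-Hochberg over all genes tested. The threshold of the study's methods was kept. They name DESeq2, which was run as an alternative (version 1.42.0). The lowest Spearman correlation across genes between replicates was 0.995. A common dispersion of 0.00376 gives a coefficient of variation of 6.13%.

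Lengths and overlapping genes came from GENCODE M21, which is on another build than the one the paper names. No gene coordinates are therefore given beyond those of the *Loxl4* promoter. Genes named outside the family are the 3 most counted of each list and the 3 most similar to each member, of which 1 is not reported here. The members, lists and rules were chosen with earlier results of these data known. The ratios of *Lox* to other genes within libraries were added after the data were seen. No set test was made.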

Additional observations from a re-analysis of the deposited data

How the results depend on the processing

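With the fold-change minimum removed, the number of the 5 lysyl oxidase genes passing was 5 from Stem to TGF-β, 3 from TGF-β to Both and 5 from Stem to Both. The genes that passed only then were *Loxl1* and *Loxl3* between Stem and TGF-β (0.40 and 0.95 on the log2 scale) and between Stem and Both (0.31 and 0.78), and *Loxl2*, *Loxl3* and *Loxl4* between TGF-β and Both (-0.40, -0.17 and -0.36). Between Stem and TGF-β, the list counts in either direction then were 12 of 13 tested for maturation and anchoring (7 rose, 5 fell). Those for lysine hydroxylation were 10 of 11 (9 rose, 1 fell), and for copper 6 of 8 (5 rose, 1 fell). Between TGF-β and Both, 6 of 13 passed for maturation and anchoring and 11 of 14 for substrates. For lysine hydroxylation 2 of 11 passed, and for other crosslinking enzymes 2 of 4. Of all genes tested, 37.3% rose and 37.7% fell between Stem and TGF-β, and 3.54% rose and 5.38% fell between TGF-β and Both. Between Stem and Both, 36.6% of all genes rose. With 1 library left out, the PFI-3 log2 fold change of *Lox* ran from -0.061 to 0.018, so that its sign turned (0.0053 without TGF-β replicate 2 and 0.018 without Both replicate 1). The share of *Lox* moved with the length used. With coding length it was 66.4%, 92.1% and 93.1% for Stem, TGF-β and Both, and with no length correction 55.2%, 87.3% and 88.8%. DESeq2, its size factors, total counts, other filters, a prior count of 2, a fit of the 6 libraries compared, edgeR's TREAT test and leaving out each library changed no member's call at 2-fold.

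Whether the replicate numbers pair the libraries was not settled. The correlations of same-numbered deviations from the group means ran from -0.0489 to 0.443 over 10899 genes, 4 of the 9 being under 0.1, and not every library correlated best with its own number. The libraries numbered 2 had the highest correlations between same-numbered libraries, at 0.380, 0.434 and 0.443. Their correlations with libraries of another number in the other groups were all negative. The deviations of a group sum to 0 for each gene, so such negative values follow on balance from the centering and add no information on pairing. With the replicate number as a block, the 2-fold calls of the members were 3 from Stem to TGF-β and 0 from TGF-β to Both, as without it, and the adjusted p of *Loxl3* between TGF-β and Both was 0.0118. That of *Loxl1* was 0.0758 with the block and 0.415 without it (edgeR).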
